A study of Homo sapiens with 6 samples.

Results

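The forkhead and SOX genes are 2 families of transcription factors, and 57 of them were measured here among 19775 genes with a probe set of 1 symbol. Members were taken by gene symbol from the platform annotation (FOX followed by a letter from A to S and a number, or SOX followed by a number), without FOXA1. They comprise 38 forkhead genes and 19 SOX genes, with 142 probe sets in all. A probe set is a group of short probes on the array that reads 1 transcript or part of it. The RNA was total RNA of MDA-MB-231 cells, an established human line from breast cancer without estrogen receptor. One group of 3 arrays held cells transfected with siRNA against LSD1, a histone demethylase encoded by KDM1A, and the other group of 3 held cells transfected with a control siRNA. Both groups were harvested after 6 days and 2 transfections, and the arrays of a group are biological replicates. The question was what loss of LSD1 does to transcript levels in these cells. The siRNA sequences are not given in the sources used here.

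Forkhead proteins bind DNA through a winged-helix domain, and SOX proteins bind the minor groove and bend the DNA through an HMG box. FOXM1 drives the genes of mitosis, FOXO proteins are held out of the nucleus by AKT phosphorylation and act on cell-cycle arrest, stress and metabolism, and FOXA proteins can open closed chromatin. SOX2 is known for stem cell identity, SOX9 for cartilage and for progenitor cells of several epithelia including the breast, and SOX4 is a common marker of developing and tumour tissue.

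Values are MAS5 signals, which are linear brightness values scaled to the same trimmed mean on each array (500.1 on all 6). The 3 LSD1 siRNA arrays gave a KDM1A signal between 184 and 291, against 2295 to 2540.1 on the control siRNA arrays, so KDM1A was at 9.58% of its control mean (log2 change -3.32, SE 0.13, limma adjusted p = 1.46e-08). Precision is limited by the small number of arrays. The ratio of 3' to 5' ACTB signal, a sign of RNA integrity, was 1.74 on control siRNA array 1 and lay between 1.33 and 1.43 on the other 5. For GAPDH the same ratio differed less, at 1.03 on control siRNA array 1 and between 0.92 and 0.98 on the other 5. All 13 markers chosen for MDA-MB-231, VIM, CD44 and AXL among them, had median signals of 4232 or more. The 8 genes chosen as low in MDA-MB-231 had median signals from 28.9 to 546. Among them, ESR1 and PGR stood at 62.9 and 52.4, GATA3 at 521 and ERBB2 at 546. Of 12 leukocyte markers 10 had a probe set, PTPRC, which defines the class, had a median signal of 21.0, and LAPTM5 stood at 5382. The summed signal of the 7 leukocyte markers tested was 7765 to 7829 with LSD1 siRNA, against 3351 to 3719 with control siRNA, and LAPTM5 was the 1 that rose. The 4 endothelial markers tested summed to 3258 to 3515 with LSD1 siRNA, against 2459 to 2619 with control siRNA, with ESAM and ROBO4 higher. Their part in the results below was not tested. Endothelial CDH5 (7.02), melanocyte TYR (18.1) and fibroblast PDGFRA (15.1) had median signals below the filter of about 28 used in the test. Of the 10 fibroblast markers 4 had median signals below it, and COL1A1 stood at 474. The endothelial gene ESAM stood at 2211 and MITF, a melanocyte factor, at 2190.4.

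Forkhead genes that changed were lower with LSD1 siRNA, and the SOX genes that changed split. After the filter on dim genes, 35 members were tested, 25 forkhead and 10 SOX. The forkhead genes FOXM1, FOXK2, FOXF2, FOXO3, FOXO6, FOXQ1, FOXN3 and FOXA2 fell, and 0 of the 25 rose in limma, also at an unadjusted p of 0.05. Among the SOX genes SOX9 fell and SOX15 rose. In all 10 of 35 members passed the test at an adjusted p of 0.05 in limma, where 41.0% of all 13822 genes tested passed. The 9 lower members stand beside a background of 21.3% of genes called lower, and the 1 higher member beside 19.8% called higher. The share of members called, 28.6%, is below the background. The median log2 change was -0.24 over the 25 forkhead genes and -0.07 over the 10 SOX genes, against -0.02 over all genes tested. Changes of at least 2-fold that passed the test were found for 5 of the 35 members (FOXM1, FOXK2, FOXO6, SOX9 and SOX15), with a background of 4.63%. For 13 members no LSD1 siRNA array lay within the range of the control siRNA arrays, beside 50.4% of all genes. In 11 of these the LSD1 siRNA arrays were below, beside 26.2% of all genes.

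**Figure D1:**
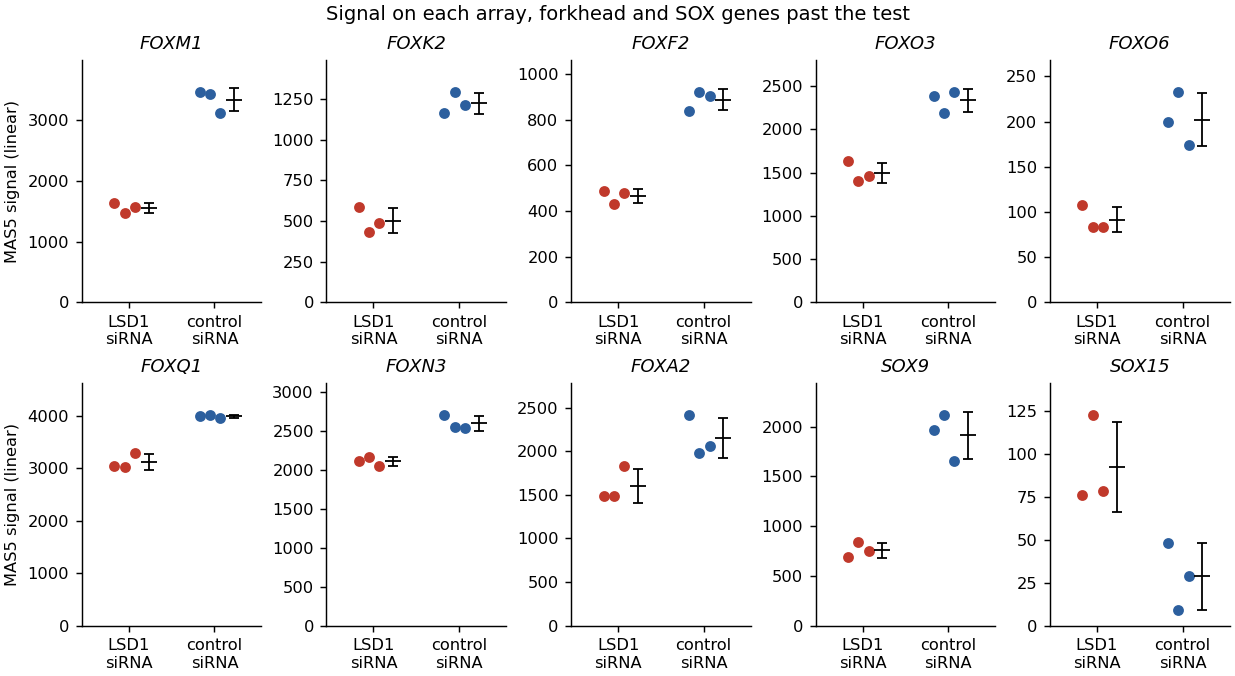
MAS5 signal (linear scale from 0) of the 10 members past the test, with LSD1 siRNA arrays on the left and control siRNA arrays on the right of each panel. Points are single arrays, and the bar beside them is the mean with its SD (n = 3). In 9 panels all LSD1 siRNA points lie below all control siRNA points, and in the SOX15 panel they lie above.

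FOXM1, the forkhead activator of mitotic genes, had signals of 1626, 1471 and 1561 on the LSD1 siRNA arrays, against 3462, 3426 and 3113 on the control siRNA arrays. The groups did not overlap, and each LSD1 siRNA array was below the lowest control array by a wide margin. The log2 change was -1.09 (SE 0.07, limma adjusted p = 3.51e-07), and FOXM1 was at 46.6% of its control mean. Its only probe set, 202580_x_at, carries the x suffix, a mark of possible cross-hybridisation. In bulk RNA, fewer cells in a given phase of the cycle and less transcript per cell cannot be told apart. For FOXM1 alone, exact permutation of its 6 values (two-sided) gave p = 0.1, and 3 against 3 arrays allow nothing smaller.

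Of the 4 tested forkhead genes of the O class, the targets of AKT, FOXO3 and FOXO6 fell and FOXO1 and FOXO4 did not pass. FOXO3, which activates genes of arrest and apoptosis when nuclear, had signals of 1631, 1403 and 1464 with LSD1 siRNA, against 2386, 2184 and 2436 with control siRNA. The groups did not overlap, and the log2 change was -0.64 (SE 0.08, limma adjusted p = 3.94e-05). Of its 4 probe sets, 3 fell when every probe set was tested, with changes of -0.75, -0.64 and -0.35, and the dim set 231548_at had a value of -0.51 (adjusted p = 0.352). FOXO6, a relative best known from brain and liver, was dimmer: 108, 83.9 and 83.5 with LSD1 siRNA, against 199.6, 233 and 174 with control siRNA. All 3 LSD1 siRNA values lay below the lowest control value, for a log2 change of -1.02 (SE 0.18, adjusted p = 0.000729). FOXO6 also rests on 1 probe set with the x suffix. FOXO1, the class member best known from insulin signalling, had overlapping signals of 251, 304 and 233 with LSD1 siRNA, against 269, 244 and 350.0 with control siRNA. Its log2 value was -0.11, with a 95% interval of -0.46 to 0.23 (adjusted p = 0.603). FOXO4, at 53.1, 38.2 and 60.1 with LSD1 siRNA against 18.7, 53.8 and 29.9 with control siRNA, also overlapped and had a value of 0.46 with a wide interval, -0.28 to 1.21. No test was made of whether these 4 genes differ from one another in their response.

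FOXK2, a forkhead repressor of autophagy genes that works with SIN3A, had signals of 585, 434 and 487 with LSD1 siRNA, against 1163, 1295 and 1212 with control siRNA. The highest LSD1 siRNA array was below the lowest control array, and the log2 change was -1.27 (SE 0.11, limma adjusted p = 2.82e-06). Its 7 probe sets all had values below 0, but they differed in size. When every probe set was tested, 203064_s_at fell by 0.35 on the log2 scale (adjusted p = 0.0063), and the other 5 had values from -0.56 to -0.15 that did not pass. With the mean over its 7 probe sets in place of the brightest, FOXK2 was at -0.46 (adjusted p = 0.0098). FOXK1, the close relative of FOXK2, had signals of 593, 604 and 497 with LSD1 siRNA, against 767, 736 and 566 with control siRNA. These groups overlapped, and the value of -0.27 did not pass (SE 0.12, adjusted p = 0.0996). Without control siRNA replicate 3, the lowest of the control arrays for FOXK1, the value was -0.41 with an adjusted p of 0.0108, and averaging its 4 probe sets gave 0.04 (adjusted p = 0.91). Over the alternatives tried, the adjusted p of FOXK1 ran from 0.0108 to 0.91.

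FOXF2 and FOXQ1 are encoded near each other on chromosome 6, and both fell. FOXC1, the next protein-coding gene after FOXF2, has no probe set among the members, so its level is not known here. FOXF2, a mesenchymal forkhead factor, had signals of 486, 429.5 and 481 with LSD1 siRNA, against 839, 923 and 904 with control siRNA. The separation was clear on all arrays, with a log2 change of -0.91 (SE 0.09, limma adjusted p = 8.94e-06). FOXQ1, linked in breast and colon cancer cells to loss of epithelial traits, had 3038, 3028 and 3289 with LSD1 siRNA, against 3987, 4015 and 3956 with control siRNA. The control arrays lay within a narrow band here, all above the LSD1 siRNA arrays, and the log2 change was -0.35 (SE 0.06, adjusted p = 0.000481). Each of these genes has 1 probe set. The windows of 250 bases before their annotated starts lie 77228 bases apart in GRCh38.p14.

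The promoter sequences of these neighbours are given here with those of FOXK2, FOXO3, FOXN3 and FOXO6, which are the 6 called genes in the sequence table, so that their letters can be compared. Sequences are from RefSeq, build GRCh38.p14, each 250 bases before the start, written 5′ to 3′ on the strand of the gene, and capitals mark CCAAT boxes on either strand (CCAAT or its reverse ATTGG). FOXF2 is at chr6:1389326-1389575 on the plus strand, FOXQ1 at chr6:1311848-1312097 on the plus strand, and FOXK2 at chr17:82519482-82519731 on the plus strand. FOXN3 is at chr14:89619166-89619415 on the minus strand and FOXO6 at chr1:41361184-41361433 on the plus strand. FOXO3 has 4 starts in the table, and the one shown is the most upstream, at chr6:108559575-108559824 on the plus strand.
FOXF2: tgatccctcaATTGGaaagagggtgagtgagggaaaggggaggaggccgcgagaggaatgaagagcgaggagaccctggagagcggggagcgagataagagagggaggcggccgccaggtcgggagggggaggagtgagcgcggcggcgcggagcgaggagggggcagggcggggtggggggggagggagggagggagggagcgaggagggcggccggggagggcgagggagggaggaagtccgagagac
FOXQ1: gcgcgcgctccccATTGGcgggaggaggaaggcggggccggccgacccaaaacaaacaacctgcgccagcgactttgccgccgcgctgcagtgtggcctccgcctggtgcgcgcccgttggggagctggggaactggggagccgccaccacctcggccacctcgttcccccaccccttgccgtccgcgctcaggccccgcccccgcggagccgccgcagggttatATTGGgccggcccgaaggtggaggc
FOXK2: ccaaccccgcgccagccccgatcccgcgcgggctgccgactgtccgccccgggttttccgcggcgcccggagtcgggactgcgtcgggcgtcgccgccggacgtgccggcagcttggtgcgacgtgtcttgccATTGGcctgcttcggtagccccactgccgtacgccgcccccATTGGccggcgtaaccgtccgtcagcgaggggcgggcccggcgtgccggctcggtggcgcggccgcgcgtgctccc
FOXO3: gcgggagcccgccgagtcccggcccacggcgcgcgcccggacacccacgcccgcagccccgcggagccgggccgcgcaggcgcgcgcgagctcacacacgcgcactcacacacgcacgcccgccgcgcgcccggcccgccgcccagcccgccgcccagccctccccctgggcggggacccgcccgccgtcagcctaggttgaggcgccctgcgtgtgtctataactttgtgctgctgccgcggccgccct
FOXN3: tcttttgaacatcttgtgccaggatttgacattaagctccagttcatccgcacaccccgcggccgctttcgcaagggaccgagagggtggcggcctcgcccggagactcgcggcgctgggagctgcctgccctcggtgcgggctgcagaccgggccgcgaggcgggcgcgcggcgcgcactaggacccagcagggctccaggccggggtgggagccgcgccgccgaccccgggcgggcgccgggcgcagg
FOXO6: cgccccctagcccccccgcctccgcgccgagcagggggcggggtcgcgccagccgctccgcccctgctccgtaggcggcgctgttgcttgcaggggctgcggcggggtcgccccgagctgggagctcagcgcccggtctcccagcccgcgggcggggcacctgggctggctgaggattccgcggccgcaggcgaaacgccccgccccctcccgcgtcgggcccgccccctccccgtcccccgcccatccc

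FOXF2 held 1 CCAAT box, FOXQ1 and FOXK2 held 2 each, and the windows shown for FOXO3, FOXN3 and FOXO6 held 0. Of the 38 members in the sequence table, these 6 called genes have 9 windows, and 3 of those windows held a CCAAT box, as did 28.6% of the 42 windows of tested members and 32.0% of all 35116 windows of that length. GC boxes (GGGCGG, either strand) were in 8 of the 9 windows, against 57.1% of the windows of tested members and 42.6% of all windows. These are counts of windows and not of genes, and FOXO3 gave several of the 9. The 42 windows of tested members include these 9, and several windows each of FOXP1 and SOX6, most of them without a GC box. The cell-cycle homology element TTTGAA was in 1 of the 9, that of FOXN3, against 14.3% of the windows of tested members and 13.3% of all. The forkhead core TGTTTAC was in 0 of the 9, in 7.14% of the windows of tested members and in 2.98% of all, and the SOX core ACAAT, which differs from CCAAT in its first letter and so never matches the same letters, was in 1 FOXO3 window, in 35.7% of the windows of tested members and in 24.6% of all. The windows of the called genes were rich in G and C, with a median of 74.4% and a range of 47.6% to 81.6%, beside medians of 66% over the windows of tested members and 58% over all windows. A match describes letters in the window and not a site in use.

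FOXN3, a forkhead repressor with a checkpoint role known from yeast assays, fell by a small amount. Its signals were 2112, 2157 and 2049 with LSD1 siRNA, against 2705, 2547 and 2535 with control siRNA. The groups did not overlap, and the log2 change was -0.30 (SE 0.06, limma adjusted p = 0.00186). Of 7 probe sets tested, 4 fell, by values from -0.81 to -0.30, and the other 3 had values from -0.31 to -0.25. With the mean of its probe sets the value was -0.28 and did not pass (adjusted p = 0.101). FOXA2, a pioneer factor of liver and gut, had signals of 1487, 1492 and 1831 with LSD1 siRNA, against 2419.8, 1979 and 2063 with control siRNA. LSD1 siRNA array 3 came nearest to the control arrays but stayed below them, and the log2 change was -0.42 (SE 0.10, adjusted p = 0.00418). A second FOXA2 probe set fell by 0.31, and the third, at signals of 15.5 to 21.8 with LSD1 siRNA and 38.8 to 55.0 with control siRNA, had a value of -0.84 (adjusted p = 0.0621).

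SOX9, the factor of cartilage and epithelial progenitors, had the lowest log2 change of the tested members. Its signals were 689, 839 and 748 with LSD1 siRNA, against 1967, 2121 and 1654 with control siRNA. Every LSD1 siRNA array was below every control array, the mean was at 39.6% of control, and the log2 change was -1.32 (SE 0.10, limma adjusted p = 1.59e-06). Its other probe set, 202935_s_at, had 452, 447 and 487 with LSD1 siRNA, against 1069.9, 1119 and 1328 with control siRNA. The 2 sets gave nearly the same change, -1.32 and -1.31.

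SOX15, a factor known from muscle and placenta, was the member that rose, on 1 of its 2 probe sets. Its signals were 76.0, 123 and 78.6 with LSD1 siRNA, against 48.4, 9.13 and 28.8 with control siRNA. The groups did not overlap, but all 6 values are dim and the control arrays are spread over a wide range. Its log2 change was 1.38 (SE 0.37, limma adjusted p = 0.00975). Leaving out LSD1 siRNA replicate 2, the highest array, gave 1.18 (adjusted p = 0.051). The second SOX15 probe set, 217040_x_at, had overlapping signals of 133, 124 and 127 with LSD1 siRNA, against 128, 122 and 101 with control siRNA, and a value of 0.12 (adjusted p = 0.656 over probe sets). That set is the brighter one, and the rule that sets aside x-suffix sets is why the other represents the gene. Averaging both SOX15 sets gave 0.75 (adjusted p = 0.0195).

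**Figure D2:**
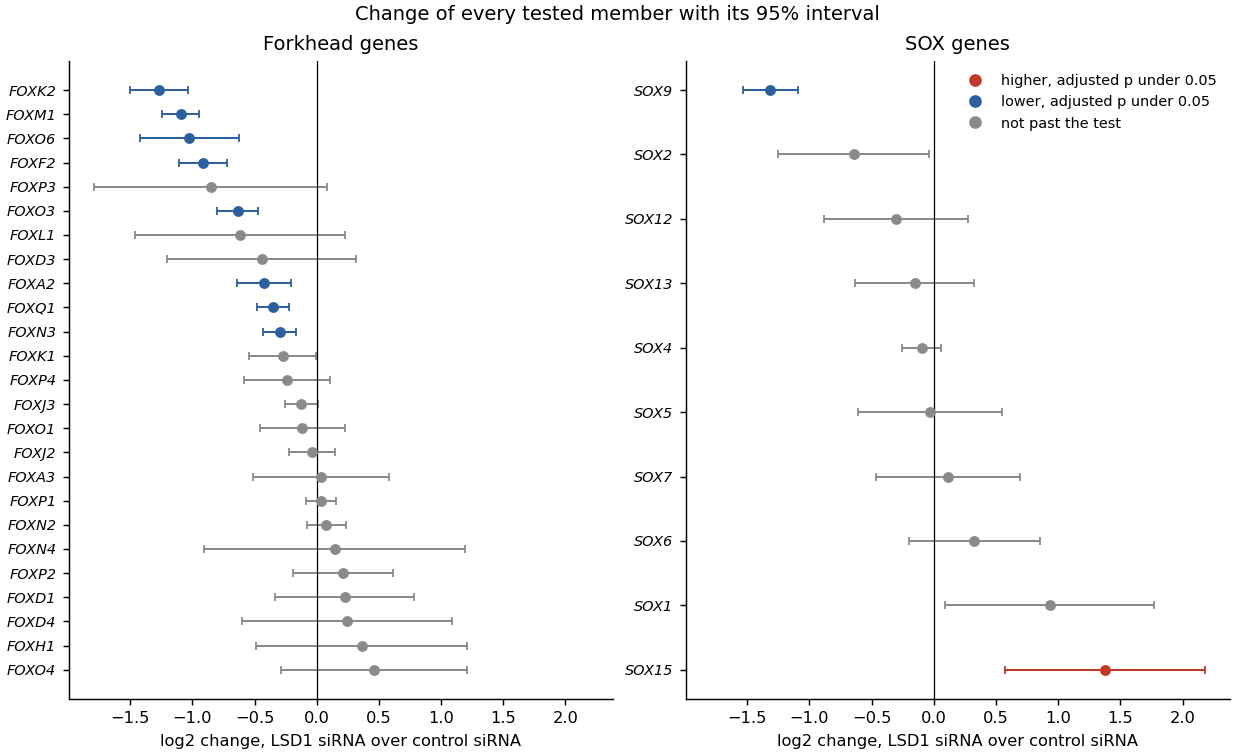
Log2 change of the 25 forkhead genes (left) and 10 SOX genes (right) that were tested, on the log2(signal + 15) scale, LSD1 siRNA over control siRNA. Points are estimates, bars are 95% intervals, and colours show the limma result at an adjusted p of 0.05. The 8 forkhead genes past the test all lie left of 0.

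The remaining SOX genes did not pass at gene level. SOX4 had signals of 1363, 1324 and 1381 with LSD1 siRNA, against 1564, 1343 and 1460.3 with control siRNA, which overlapped. Its log2 value was -0.10, with a 95% interval of -0.26 to 0.06 (adjusted p = 0.317). Another SOX4 probe set, 201416_at, did pass: it had 247, 289 and 318 with LSD1 siRNA, against 409, 511 and 437 with control siRNA, a fall of 0.64 on the log2 scale (adjusted p = 0.00229 over probe sets). The other 3 tested SOX4 sets had values from -0.27 to 0.02. The brightest SOX4 set and 201416_at therefore gave different results for 1 gene, and which transcript part each reads was not analysed here.

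SOX2, the stem cell factor, had dim signals of 58.7, 49.96 and 42.3 with LSD1 siRNA, against 61.5, 127 and 81.3 with control siRNA. The groups did not overlap, yet the value of -0.64 did not pass (SE 0.28, adjusted p = 0.0862). Without control siRNA replicate 1, the lowest of the control arrays for SOX2, the SOX2 value was -0.85 with an adjusted p of 0.0361. That array also had the highest ACTB 3' to 5' ratio. Averaging the 4 SOX2 probe sets gave -0.04 (adjusted p = 0.903), and the other set that was tested, 213721_at, had a value of 0.12. The adjusted p of SOX2 ran from 0.0361 to 0.903 over its alternatives. SOX1, a neural factor, had 46.1, 44.5 and 59.0 with LSD1 siRNA, against 33.9, 23.8 and 5.45 with control siRNA. Its value of 0.93 did not pass either (adjusted p = 0.0731). Leaving out control siRNA replicate 1, the highest of the control arrays for SOX1, gave 1.20 (adjusted p = 0.0361). Over its alternatives the adjusted p of SOX1 ran from 0.0361 to 0.208. The part of array quality in these values was not tested. SOX12 (-0.31), a relative of SOX4, and SOX13 (-0.15), a repressor related to SOX5 and SOX6, overlapped between groups. SOX12 had 81.7, 169 and 146 with LSD1 siRNA, against 189, 194 and 113 with control siRNA. SOX13 had 238, 359 and 197 with LSD1 siRNA, against 265, 233 and 383 with control siRNA. SOX6 (0.33) and SOX5 (-0.03), partners of SOX9 in cartilage, and SOX7 (0.11), an endothelial and endodermal factor, did not pass.

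Among the 17 forkhead genes that did not pass, values ran from -0.85 to 0.46 on the log2 scale. FOXP1, a repressor with roles in B cells and lung, had signals of 4974, 4918 and 5118 with LSD1 siRNA, against 4922, 4913 and 4787 with control siRNA. Its value was 0.04 and its 95% interval of -0.08 to 0.16 is narrow. None of its 7 tested probe sets passed. FOXN2, a little studied relative of FOXN3, had 3089, 2908 and 3046 with LSD1 siRNA, against 3110.1, 2608 and 2877 with control siRNA, and a value of 0.08 with an interval of -0.08 to 0.23. FOXJ3, a factor of muscle and of germ cells, had 2630.2, 2567 and 2629 with LSD1 siRNA, against 3017, 2795 and 2727 with control siRNA. Its groups did not overlap, but the value of -0.12 did not pass (adjusted p = 0.134). FOXJ2 (-0.04) and FOXP4 (-0.24) overlapped. FOXP4 was at -0.40 with an adjusted p of 0.0489 without control siRNA replicate 3, and its adjusted p ran from 0.0489 to 0.695 over its alternatives.

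The dim forkhead genes have wide intervals. FOXP3, the factor of regulatory T cells, had a value of -0.85 with an interval of -1.79 to 0.09, and FOXL1, a gut mesenchyme factor, had -0.62. FOXD3, a neural crest factor, had -0.44, FOXD4 had 0.24 and FOXD1, a kidney stroma factor, had 0.22. FOXH1, a partner of SMAD proteins, had 0.36, FOXN4, a retinal factor, had 0.14, and FOXA3, a liver factor, had 0.03. FOXP2, known from speech and language circuits, had 0.21. One of 3 tested FOXP2 probe sets, 1564876_s_at, fell by 1.26 on the log2 scale (adjusted p = 0.0221 over probe sets). Its signals were 32.6, 49.4 and 6.87 with LSD1 siRNA, against 92.7, 74.1 and 81.6 with control siRNA, while the brightest set did not pass.

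**Figure D3:**
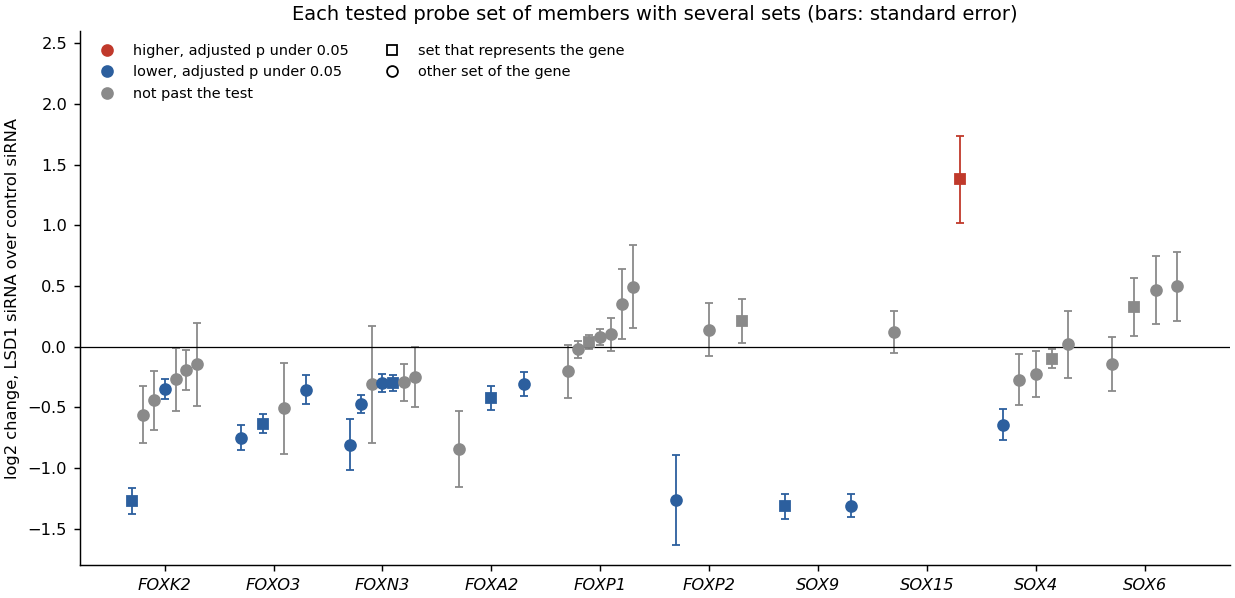
Log2 change of every tested probe set of 10 members that have several, LSD1 siRNA over control siRNA, with bars of 1 standard error. Squares are the sets that represent the gene and circles the other sets, and colours show the result over all probe sets tested. FOXO3 and SOX9 sets lie together below 0, FOXK2 sets spread from -1.27 to -0.15, and single SOX4 and FOXP2 sets lie below the rest.

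Over probe sets, 78 of the 142 member sets passed the filter on dim values. Of these 1 rose and 19 fell, belonging to 12 genes: the 10 called at gene level, SOX4 and FOXP2. The share called was 25.6%, where 31.2% of all 32805 probe sets tested were called, with 16.0% lower and 15.2% higher. Brightness sets how small a change the test can see. Of the 17 members with a mean signal of at least 200, a value chosen after the data were seen, 8 were called and all 8 were lower, with 54.6% of all genes that bright called in either direction and 29.2% called lower. Of the 18 dimmer members 2 were called, FOXO6 and SOX15, where 12.8% of all dimmer genes were called. The median standard error was 0.08 for the brighter members and 0.31 for the dimmer ones.

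The other 22 members did not pass the filter and were not tested. They are FOXB1, FOXC2, FOXD2, FOXE1, FOXE3, FOXF1, FOXI1, FOXJ1, FOXL2, FOXN1, FOXR1, FOXR2 and FOXS1, and SOX3, SOX8, SOX10, SOX11, SOX14, SOX17, SOX18, SOX21 and SOX30. Their brightest probe sets had signals between 0.812 and 53.3 over all 6 arrays. The highest group means were 29.3 with LSD1 siRNA and 31.3 with control siRNA, both for FOXD2. Factors of neural crest and Schwann cells (SOX10), endothelium (SOX17, SOX18) and ciliated cells (FOXJ1) are in this class, and a dim signal does not show that a transcript is missing.

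FOXM1 cofactor and target genes fell. In a list of 50 genes of FOXM1 and MuvB cofactors and targets, 47 were tested, 44 fell and 0 rose (also 0 at an unadjusted p of 0.05 in limma), with a median log2 change of -0.82. The median over all genes tested was -0.02, and 21.3% of them were called lower. CENPF, a kinetochore gene, was at 2345 ± 109 with LSD1 siRNA and 5322 ± 175 with control siRNA (SD, n = 3), a log2 change of -1.18. TPX2, a spindle gene, changed by -1.02, CENPE, a mitotic motor gene, by -1.07 and PRC1, which bundles microtubules of the midzone, by -0.98. XRCC1 (-0.33), LIN54 (-0.12) and LIN37 (0.05), of which the last 2 are MuvB subunits, did not pass.

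FOXO target genes moved in both directions, and only the share that rose was above that of all genes. Of 45 tested in a list of 51, 20 rose (44.4%) and 9 fell (20%), with a median log2 change of 0.20. Over all genes, 19.8% were higher and 21.3% lower. FBXO32, a muscle ubiquitin ligase gene, was at 1813 ± 47.9 with LSD1 siRNA and 363 ± 20.3 with control siRNA (SD, n = 3), a log2 change of 2.27. The p21 gene CDKN1A, a brake on CDKs, rose by 1.79, GABARAPL1, an autophagy gene, by 1.8 and SESN3, a stress-response gene, by 1.74. CCND1, the cyclin D1 gene that FOXO proteins repress, fell by 0.71, while CCND2, the cyclin D2 gene in the same list, rose by 0.71. IRS2 (-0.75), KLF2 (-1.05) and BCL2L11 (-0.71), which FOXO proteins activate in other settings, fell too. CDKN1A and several others answer to many factors besides FOXO.

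The next list holds kinases, phosphatases and other regulators of FOXO. Of 37 tested in a list of 42, 3 rose and 12 fell, with a median log2 change of -0.09. The share called, 40.5%, is close to the 41.0% of all genes. The 14-3-3 gene YWHAG (0.36), the kinase gene SGK1 (0.30) and the PI3-kinase subunit gene PIK3CD (0.34) rose. IRS2, which is also among the FOXO targets, YWHAH (-0.45), the ubiquitin ligase gene SKP2 (-0.89) and the nuclear exporter gene XPO1 (-0.31) were among the falls. Averaging each gene's probe sets left 7 falls.

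Of SOX partner and target genes, 29 of 47 were tested, 4 rose and 7 fell, with a median log2 change of -0.18. The share called was 37.9% (24.1% lower and 13.8% higher), beside 41.0% of all genes (21.3% lower and 19.8% higher). SEMA3C (0.79), a guidance gene, SNAI2 (0.92), a repressor of epithelial genes, ERBB3 (0.61) and the cartilage collagen gene COL11A2 (0.53) rose. EZH2, a Polycomb methyltransferase gene reported as a SOX4 target, was at 2011 ± 123 with LSD1 siRNA and 3975 ± 192 with control siRNA (SD, n = 3), a change of -0.98. LGR5 (-1.30), a stem cell receptor gene, LEF1 (-0.81), a WNT factor, and HDAC1 (-0.30) fell. ACAN, a cartilage gene that SOX9 activates, did not pass at -0.52 (adjusted p = 0.267), while COL11A2, another cartilage gene of the list, rose. Averaging each gene's probe sets left 2 rises and 3 falls.

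The last list holds HMG-box genes outside the SOX family. Of 21 tested in a list of 24, 13 fell and 1 rose, with a median log2 change of -0.39, beside 21.3% lower and 19.8% higher over all genes. NSD2, a histone methyltransferase gene, changed by -0.96, HMGB2, a chromatin protein gene of dividing cells, by -0.87, SSRP1, a histone chaperone gene, by -0.76 and HMGB3 by -0.71. HBP1, a repressor of cell-cycle genes, rose by 0.43.

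**Figure D4:**
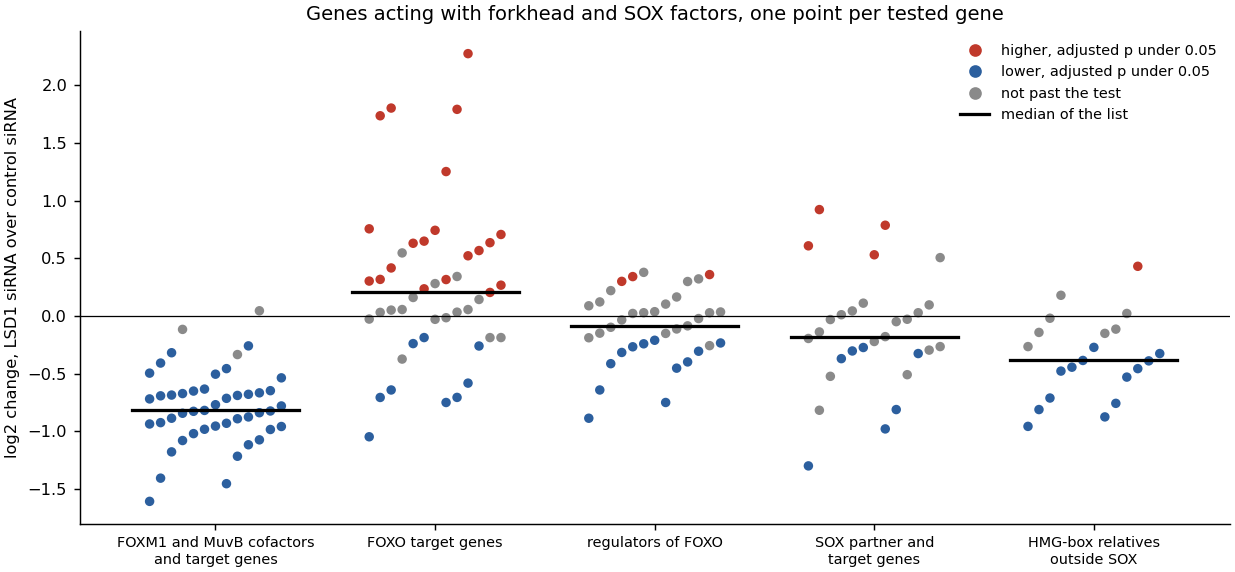
Log2 change of each tested gene in 5 lists, LSD1 siRNA over control siRNA, 1 point per gene, with a black line at the list's median. The FOXM1 list lies almost wholly below 0 (median -0.82), while the FOXO target list spreads to both sides (median 0.20).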

How the data were processed

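RNA from MDA-MB-231 cells was measured on 6 arrays, 3 with LSD1 siRNA and 3 with control siRNA. The deposited values are signal intensity on a linear scale, and the submitters' processing notes name MAS5, GCOS and Affymetrix Expression Console 1.1 as what the authors ran. After such scaling a change in total RNA per cell cannot be seen. Of 54675 probe sets, 41091 had 1 symbol in the platform annotation and were used, 1801 had several and 11777 were not listed.

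Each gene was represented by its brightest probe set, with x-suffix sets only where there was no other. Values were taken as log2(signal + 15), so a log2 change understates that of dim genes, and genes were kept if their mean exceeded the 40th percentile over probe sets (a signal of about 28). The test was limma 3.58.1, run in R 4.3.3 (lmFit, eBayes with an intensity trend, no covariate, two-sided, Benjamini-Hochberg over all 13822 genes), tested on simulated data. Probe sets were also tested one by one. Exact permutation tests used scipy 1.17.1, and figures matplotlib 3.10.9. Coordinates and sequences are from RefSeq (GRCh38.p14).

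The members, lists and rules were chosen with earlier results of these data known. Named in full are members past the test and some well-known members whatever their result, and from each list up to 4 genes with the smallest p in each direction. ACAN, CCND2 and the list genes named as not past the test were picked with their values in view. The series calls the arrays biological replicates. The limma p-values set the group difference against the spread between these arrays, which eBayes moderates over all genes tested.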

Additional observations from a re-analysis of the deposited data

Results flagged for a closer look

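A probe set of an antisense gene outside the members gave a signal that differed between the groups. Of all probe sets tested, 31.2% were called. Sets shared by FOXO3 and FOXO3B that were also called are described at the end. FOXP4-AS1, an antisense transcript gene beside FOXP4, had signals of 343, 326 and 263 with LSD1 siRNA, against 202, 174 and 201 with control siRNA on probe set 238898_at. The LSD1 siRNA arrays were above the control arrays, with a log2 change of 0.65 (SE 0.14, limma adjusted p = 0.00393 over all probe sets tested). FOXP4 itself did not pass, at -0.24.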

How the results depend on the processing

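Of the 10 members called, 8 kept their direction and their side of the threshold under all 16 alternatives, and the exceptions were FOXN3 with the mean of all probe sets (-0.28, adjusted p = 0.101) and SOX15 without LSD1 siRNA replicate 2 (1.18, adjusted p = 0.051). SOX15 has no value with a filter at the 60th percentile, which leaves 0 SOX genes called higher. With every probe set tested on its own, 16 forkhead and 3 SOX sets were lower and 10245 of all sets were called, since more features are then counted. Leaving out each array gave 0 to 2 SOX genes called higher and 1 to 2 called lower, and 4 members not called otherwise passed in some setting: FOXK1 and FOXP4 without control siRNA replicate 3, SOX1 and SOX2 without control siRNA replicate 1, and FOXK1 also with the replicate block (adjusted p = 0.0291). With the replicate block 9 forkhead genes were lower, FOXK1 being the added one, and 5679 of all genes called against 5673. Same-numbered arrays did not deviate together (correlations of 0.01, -0.01 and 0.02). This check sees only shared deviations and cannot show whether the arrays were prepared in pairs. Among regulators of FOXO, 6 rose with a filter at the 60th percentile and 5 without control siRNA replicate 3, against 3. Of SOX partner and target genes, 2 rose without LSD1 siRNA replicate 1 or 3, against 4. The cause of these differences was not tested. Arrays limit what can be seen for dim members, whose median standard error was 0.31.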

Other observations

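Probe sets shared by FOXO3 and its near-identical copy FOXO3B were left out of the members because they carry more than 1 symbol. Of the 3 such sets, 204132_s_at had 312, 336 and 310.2 with LSD1 siRNA, against 379, 461 and 513 with control siRNA, and fell by 0.47 on the log2 scale (limma adjusted p = 0.0123 over all probe sets tested). Set 210655_s_at had 153, 139.7 and 146 with LSD1 siRNA, against 239.9, 217 and 209 with control siRNA, and fell by 0.56 (adjusted p = 0.0101). The third was below the filter. The antisense gene FOXN3-AS1 had 276, 275 and 311 with LSD1 siRNA, against 259, 215 and 169 with control siRNA, and its value of 0.42 did not pass (adjusted p = 0.0644), while FOXN3 fell.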
